A study of Mus musculus with 16 samples.

Results

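The comparison described here sets 4 libraries of WT C2C12 myotubes against 4 libraries of WT C2C12 myoblasts, and covers the genes that changed when normal muscle cells differentiated in culture. A gene entered the comparison when its normalized read count was at least 10 in at least 4 of these 8 libraries, which held for 10282 of the 31053 genes in the deposited table. C2C12 is a mouse myoblast line that grows as single cells and, once confluent, leaves the cell cycle and fuses into multinucleated myotubes. The study compared the WT line with a knockout derivative in both states, 16 libraries in all, and only the 8 WT libraries are used here. The labels name WT myoblasts (undifferentiated) and WT myotubes (differentiated) as control samples, give 4 biological replicates of each, leave the genotype field of the line as unknown and carry no day of differentiation. Per the methods, differentiation started spontaneously at confluency in growth medium containing 10% serum, so no change of medium separates the 2 groups. Both groups come from a single cell line and no other muscle line or tissue was measured, and p-values measure the spread between these 8 libraries only, since the labels do not say whether they came from separate cultures.

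Each library held between 2686680 and 3226387 reads in genes, and 3 reads corresponded to a normalized count of 2.59 to 3.0. The first principal component separated myotubes from myoblasts and carried 68.3% of the variance, against 9.8% for the second. Myoblast libraries correlated with each other at 0.966 to 0.979 (Pearson's r across genes, which are not independent replicates), and myotube libraries at 0.923 to 0.975. The myotube libraries were not equally far from the myoblasts. Over the genes called higher, the median log2 difference from the myoblast mean was 1.38, 0.79, 1.03 and 1.04 in myotube libraries 1 to 4, and over the genes called lower it was -1.05, -0.47, -0.78 and -0.82. Myotube library 2, the deepest of the 8, lay nearest to the myoblasts in 61.2% of the genes called higher and 64.3% of those called lower. Myoblast libraries differed in some lists too, where libraries 1 and 4 lay at opposite ends. In bulk RNA, fewer differentiated cells in a library and less muscle RNA per cell cannot be told apart.

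Of the 10282 genes, 3240 (31.5%) changed at a limma adjusted p under 0.05 (Benjamini-Hochberg over all genes tested), 1791 (17.4%) being higher in myotubes and 1449 (14.1%) lower. In 2916 genes (28.4%) the 4 myotube values and the 4 myoblast values did not overlap. These shares are the background against which each gene group below is to be read, and the median log2 fold change of all genes tested was -0.01. The 2 directions differed in size. At least 2-fold changes numbered 948 upwards and 362 downwards, at least 4-fold changes 281 and 32, at least 8-fold changes 145 and 5, and at least 16-fold changes 68 and 0. Genes of the sarcomere, the endoplasmic reticulum and DNA replication account for part of this, but without those lists 9726 genes remained, of which 1618 rose and 1253 fell, including 100 that rose at least 8-fold and 1 that fell as much. The lists are not complete, so the remaining genes still hold some of these kinds. Below, a gene is said to rise or fall only when it passed this test, fold changes are log2 of the normalized count plus 1 in myotubes relative to myoblasts with their standard error, and values of single libraries are normalized read counts in the order of the replicate numbers. Genes with at most 3 reads in every myoblast library are given as lower bounds against a floor of 3 reads per library, and with these genes at their bounds no list median below changes. Such genes passed the filter only through their myotube values, so they could not have been called lower. The counts of whole lists were repeated without each library in turn. Not repeated were counts of parts of a list and of marker lists other than those of myotubes and proliferating cells. The range is given where a repeated count moved by more than 1.5 times, except that counts of 3 or fewer genes moved by up to 4 genes.

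Skeletal muscle differentiation is driven by basic helix-loop-helix (bHLH) factors of the MyoD family, which bind E-boxes together with E proteins and hand over to myogenin and to MEF2 factors. Id proteins and Hairy-related repressors hold this programme back in growing myoblasts. Committed cells leave the cell cycle, align, fuse through dedicated membrane proteins and then assemble the contractile apparatus, the excitable membrane and the metabolic enzymes of muscle.

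**Figure D1:**
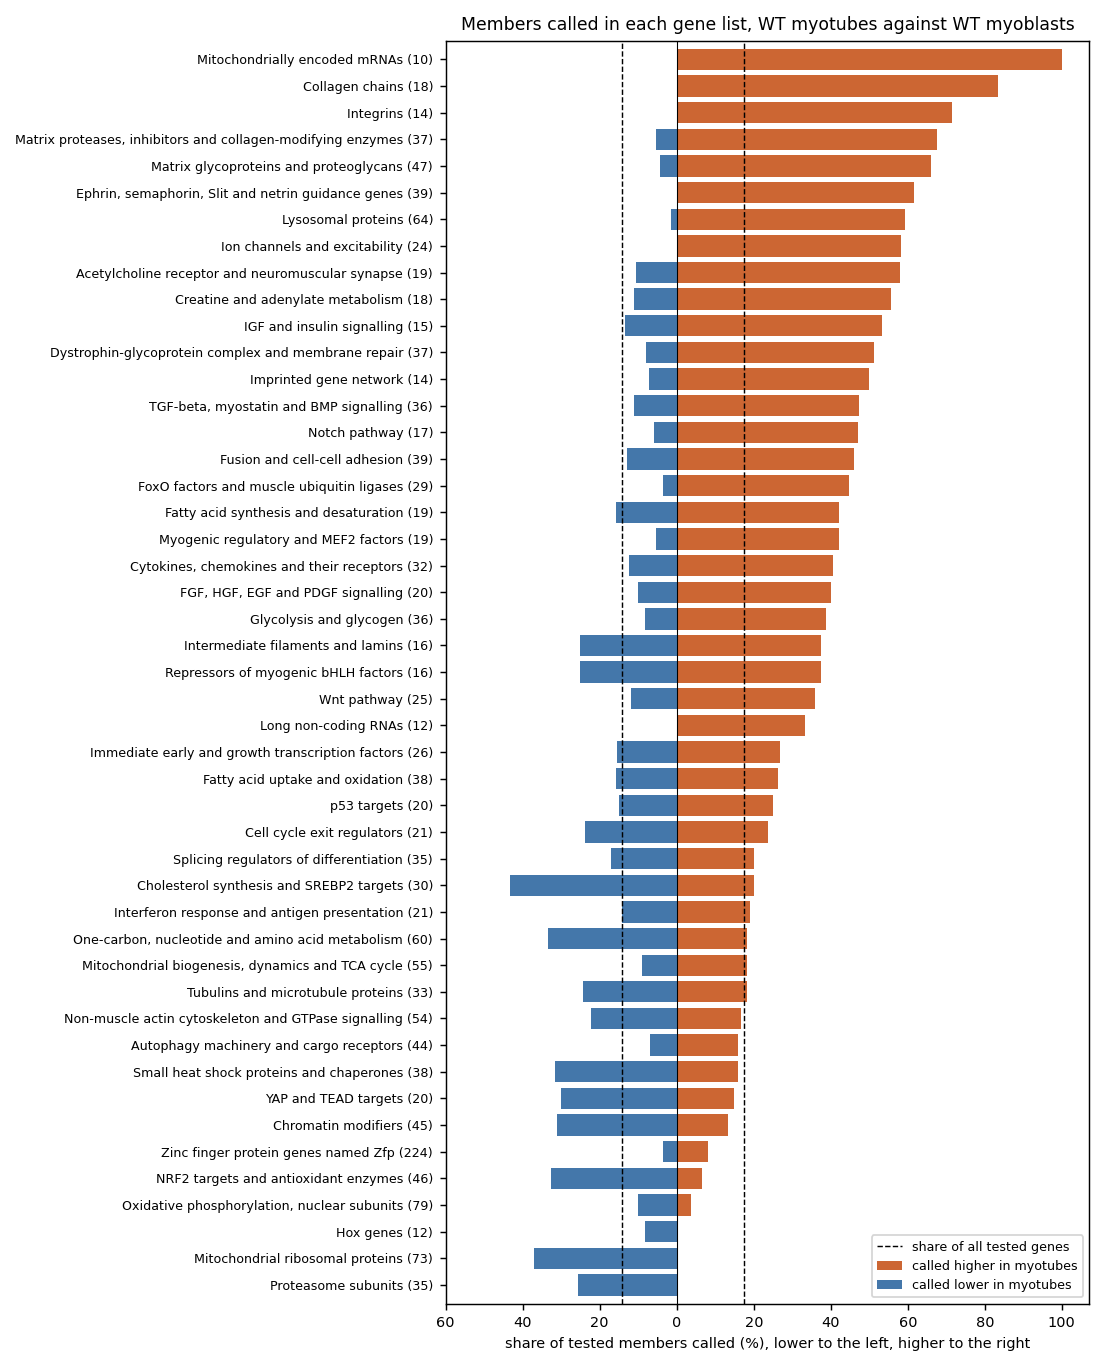
Share of the tested members of each gene list that were higher (right) or lower (left) in WT myotubes than in WT myoblasts at a limma adjusted p under 0.05, in percent, with the background of all 10282 genes (17.4% higher, 14.1% lower) drawn as lines. Collagens (15 of 18) and mitochondrially encoded mRNAs (10 of 10) stand farthest to the right, while mitochondrial ribosomal proteins (27 of 73) and proteasome subunits (9 of 35) have calls in the lower direction only.

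The labelled stages held up in their marker genes. All 14 myotube markers were higher in myotubes, with a median log2 fold change of 3.64, and their summed normalized count went from 2467 to 3797 in myoblasts to 24335 to 35810 in myotubes. Of the 10 markers of proliferating cells, 9 were lower (median log2 fold change -0.91), their sum being 6483 to 7187 in myoblasts and 3009 to 5136 in myotubes. Cdk1, the kinase of mitotic entry, had 647, 728, 574 and 760.2 in myoblasts and 238, 388, 191 and 219 in myotubes. The myotube cultures thus kept a measurable level of mitotic transcripts, highest in library 2, and the myoblast cultures already held myotube transcripts.

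Among myogenic regulatory and MEF2 factors, 8 of 19 rose and 1 fell. Myog (myogenin, chr1:134289989-134292548, GRCm38), which drives terminal differentiation, had 149, 105, 92.1 and 109.6 in the myoblast libraries and 1347, 969, 915 and 1043 in the myotube libraries (log2 fold change 3.23 ± 0.18, limma adjusted p = 7.89e-10). The groups were wide apart, and the myoblasts were not at 0. Myod1, the factor that commits cells to the lineage, was already present with 375, 236, 245 and 270.0 and rose to 908, 632, 770.4 and 740.1 (log2 fold change 1.45 ± 0.18, limma adjusted p = 1.12e-05). All 3 tested MEF2 genes rose. Mef2c, a MADS-box partner of the bHLH factors, moved from 4.61, 17.4, 9.01 and 6.24 to 79.4, 69.3, 156 and 92.1 (log2 fold change 3.36 ± 0.34, limma adjusted p = 1.46e-06), and Mef2a by 1.05 ± 0.20. Tead4, a TEA-domain factor that takes part in the differentiation programme, rose by 2.46 ± 0.23 from 27 to 56 to 172 to 307. The factor that fell was Eya1, a co-activator of homeodomain proteins active in early myogenic cells, with 51.7, 62.7, 55 and 69.5 in myoblasts against 19.9, 35.1, 15.8 and 23.8 in myotubes (log2 fold change -1.35 ± 0.25, limma adjusted p = 6.56e-04). Smyd1, a muscle methyltransferase that MEF2 factors regulate, went from 39.5 to 53.5 to 186 to 271.

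The repressors of these factors did not move as a block, with 6 of 16 higher and 4 lower. Of the 3 tested Id genes, 2 fell. Id2, which sequesters E proteins, had 211, 359, 282 and 300.3 in myoblasts and 96.7, 119.6, 146 and 169 in myotubes (log2 fold change -1.12 ± 0.20, limma adjusted p = 5.39e-04), and Id3 changed by -0.91 ± 0.22. Twist2, another bHLH repressor of MyoD, dropped from a tight 103 to 111 to 34.5 to 49.3 (log2 fold change -1.28 ± 0.18, limma adjusted p = 6.25e-05). Hey1 and Heyl, by contrast, both rose. They encode Hairy-related repressors and are targets of Notch signalling. Hey1 had 12.9, 6.75, 19 and 26.7 against 67.3, 52.2, 83.6 and 77.3 (log2 fold change 2.16 ± 0.32, limma adjusted p = 1.01e-04) and Heyl 108, 105, 120.1 and 124 against 378, 416, 362 and 519 (log2 fold change 1.85 ± 0.16, limma adjusted p = 2.35e-07). In Heyl, unlike most genes that rose, myotube library 2 was not the lowest of the myotubes. Of the 3 tested Notch targets 2 rose and 1 fell. The latter was Hes1, also a Hairy-related repressor, with 138, 113, 110 and 141 against 119, 60.3, 78.1 and 83.2 (log2 fold change -0.59). Notch pathway genes as a list had 8 of 17 higher and 1 lower, with a median log2 fold change of 0.74. Among the receptors, Notch3 rose by 1.89 ± 0.20 from 170.1 to 279.7 to 632 to 985 and Notch1 by 1.47 ± 0.25.

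**Figure D2:**
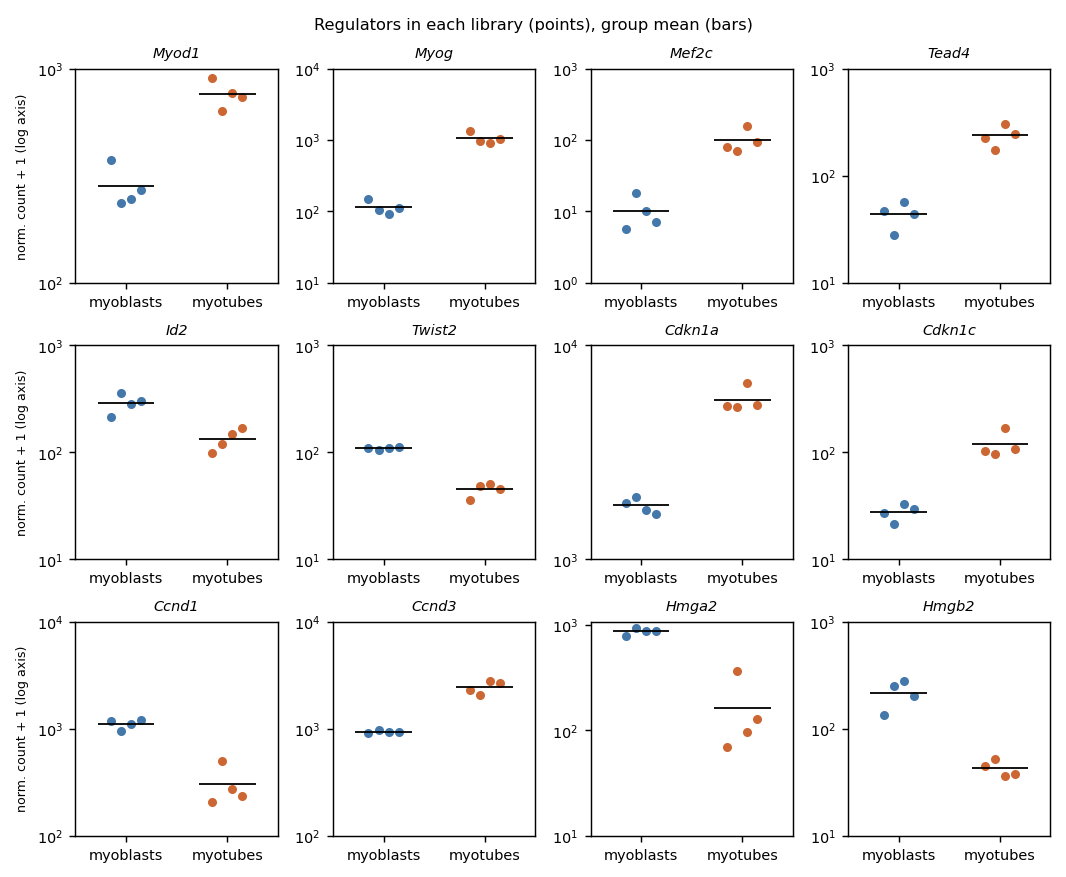
Normalized read counts plus 1 of 12 regulators in the 4 WT myoblast and the 4 WT myotube libraries on log axes, each point being 1 library and each bar the arithmetic mean of its group. Myog, Mef2c, Tead4 and Cdkn1c were higher in all 4 myotube libraries than in any myoblast library, and Id2, Twist2, Ccnd1, Hmga2 and Hmgb2 lower.

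Cell cycle exit regulators split evenly, with 5 of 21 higher and 5 lower (3 lower without myoblast library 2). Ccnd1 (cyclin D1), which carries cells through G1 phase, fell from 1176, 953, 1105 and 1202 to 207, 498, 275 and 237 (log2 fold change -1.94 ± 0.22, limma adjusted p = 4.54e-06), with library 2 retaining the most. Its relative Ccnd3, the D-type cyclin that persists in muscle cells, went the other way, from 920.0, 969, 931 and 933 to 2293, 2059, 2815 and 2661 (log2 fold change 1.38 ± 0.16, limma adjusted p = 5.22e-06). Of the 5 tested CDK inhibitors, 3 rose and none fell. Cdkn1a (p21), the inhibitor long tied to exit from the cycle in myocytes, had 1838, 1962, 1702 and 1634 in myoblasts and 5203, 5124, 6696 and 5255 in myotubes (log2 fold change 1.64 ± 0.17, limma adjusted p = 1.74e-06), and library 2 lay close to libraries 1 and 4. Cdkn1c (p57) rose by 2.08 ± 0.22 and Cdkn1b (p27) by 0.89 ± 0.20. Rb1, the retinoblastoma protein that keeps E2F factors silent, increased from 72, 63.7, 58 and 55.3 to 157, 72.9, 128 and 159.5 (log2 fold change 0.99 ± 0.23, limma adjusted p = 0.0039). E2f1 changed in the opposite direction by -0.92 ± 0.23, although its myotube library 2 (208) overlapped the myoblasts. Trp53, encoding p53, declined from 59.7 to 82.9 to 24.3 to 34.7 (log2 fold change -1.17 ± 0.21, limma adjusted p = 5.10e-04), while 5 of 20 listed p53 targets were higher and 3 lower. Those that rose included Eda2r, an ectodysplasin receptor, by 1.83 ± 0.27 and Pmaip1, a pro-apoptotic protein of the BCL2 family, by 1.53 ± 0.22.

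Chromatin modifiers had more calls downwards (14 of 45) than upwards (6). The lower group was led by high-mobility-group proteins, which bend or compact DNA in growing cells. Hmga2 (chr10:120361275-120476469, GRCm38), known from embryonic and proliferating cells, had 788, 943, 885 and 872 in myoblasts and 68.2, 363, 94.8 and 127 in myotubes (log2 fold change -2.72 ± 0.34, limma adjusted p = 1.41e-05). The fall was clear in every myotube library and smallest in library 2. Hmgb2 went from 135, 252, 279 and 199.6 to 44, 51.3, 35.3 and 36.7 (log2 fold change -2.31 ± 0.22, limma adjusted p = 8.01e-07) and Hmgb3 by -1.39 ± 0.19. Suv39h1, a histone H3 lysine 9 methyltransferase, fell by 1.38 ± 0.23, and Ezh2, the catalytic subunit of Polycomb repressive complex 2, by -0.95 ± 0.16 from 198 to 240.2 to 99.3 to 126. Cbx3, the gene of a heterochromatin protein, was among the 15 largest falls outside the sarcomere, endoplasmic reticulum and replication lists, with 104, 168, 227 and 163 against 19.9, 54, 65.1 and 27.7 (log2 fold change -2.06 ± 0.32, limma adjusted p = 1.21e-04). Modifiers that rose included Hdac11, the class IV deacetylase, from 23.1, 46.3, 33 and 18.7 to 159, 151, 191 and 239 (log2 fold change 2.63 ± 0.25, limma adjusted p = 7.08e-07), the H3K27 demethylase gene Kdm6b by 1.08 ± 0.19 and Tet2, which oxidizes methylcytosine, by 1.43 ± 0.30. Of 12 nuclear envelope genes 3 were higher and 3 lower, with a median of -0.07. Sun1, a protein of the inner nuclear membrane that couples nuclei to the cytoskeleton, increased by 1.76 ± 0.24 from 41 to 64.6 to 125 to 284, and Emd (emerin) decreased by 0.60 ± 0.15.

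Promoter sequences were compared for the 8273 tested genes (10605 start sites) whose 250 bases before the start were given by RefSeq on GRCm38.p6. The letters CAGCTG, an E-box of the kind that MyoD and myogenin bind, stood in 17.7% of promoters of genes that rose and in 25.1% of those that rose at least 4-fold, against 10.8% for genes that fell, 10.8% for genes not called and 12% for all. Both strands were searched, and CAGCTG also counts among the general E-boxes CANNTG, which occurred in 61.9%, 70.9%, 55.9% and 56.2% of promoters of genes higher, higher by at least 4-fold, lower and of all genes. The MEF2 site was present in 2.54%, 6.18%, 1.82% and 1.52% of the same 4 sets, and the CArG box of serum response factor in 1.84%, 4.36%, 1.89% and 1.30%. Cell cycle motifs leaned to the genes that fell. The E2F core GCGGGA was found in 34.1% of their promoters against 26.9% for genes that rose and 30.9% for all, CCAAT in 42.2% against 34.0% and 35.5%, and the cell cycle homology region TTTGAA in 13.3% against 9.02% and 10.4%. The E-box CACGTG, bound by MYC-like factors, was seen in 10.1% of promoters of genes that fell, 7.02% of those that rose and 8.62% of all, and TATAAA in 6.49%, 7.24% and 6.20%. A match describes the letters and not the binding of a factor, and no test was run on these shares. The 200 bases before the start of 6 genes are shown, chosen after their values were seen because they carry these letters and changed strongly, with the matches in capitals: CAGCTG in the acetylcholine receptor genes Chrng and Chrna1, in the glycogen phosphorylase gene Pygm and in the caveolin gene Cav3, CCAAT and TTTGAA in Hmgb2, and the E2F core, here on the opposite strand, in Hmga2.
Chrng, chr1:87205611-87205810, plus strand: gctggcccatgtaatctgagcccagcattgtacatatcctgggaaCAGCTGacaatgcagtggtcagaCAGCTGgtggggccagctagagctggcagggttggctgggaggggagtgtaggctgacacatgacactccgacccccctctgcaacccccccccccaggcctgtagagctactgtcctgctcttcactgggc
Chrna1, chr2:73580339-73580538, minus strand: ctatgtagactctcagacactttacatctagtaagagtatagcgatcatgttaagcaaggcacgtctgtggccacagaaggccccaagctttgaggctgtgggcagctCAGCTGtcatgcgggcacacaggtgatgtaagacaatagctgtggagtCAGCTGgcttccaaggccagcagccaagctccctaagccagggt
Pygm, chr19:6384208-6384407, plus strand: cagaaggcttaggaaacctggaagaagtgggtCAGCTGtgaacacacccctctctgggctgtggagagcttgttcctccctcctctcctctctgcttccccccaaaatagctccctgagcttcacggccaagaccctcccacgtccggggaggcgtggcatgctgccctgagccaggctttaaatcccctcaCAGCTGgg
Cav3, chr6:112459305-112459504, plus strand: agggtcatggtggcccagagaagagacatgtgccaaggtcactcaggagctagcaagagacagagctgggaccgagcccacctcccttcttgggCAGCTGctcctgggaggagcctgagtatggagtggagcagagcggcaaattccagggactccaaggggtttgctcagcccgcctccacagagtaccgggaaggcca
Hmgb2, chr8:57511643-57511842, plus strand: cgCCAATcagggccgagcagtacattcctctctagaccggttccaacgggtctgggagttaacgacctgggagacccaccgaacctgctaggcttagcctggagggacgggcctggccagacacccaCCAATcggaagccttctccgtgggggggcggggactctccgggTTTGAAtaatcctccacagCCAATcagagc
Hmga2, chr10:120476470-120476669, minus strand: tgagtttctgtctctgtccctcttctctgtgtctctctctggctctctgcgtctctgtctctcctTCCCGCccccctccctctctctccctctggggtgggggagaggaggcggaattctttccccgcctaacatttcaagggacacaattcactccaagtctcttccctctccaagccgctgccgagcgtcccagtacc

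Counted from the start, the E-boxes of Chrng begin at -155 and -132, those of Chrna1 at -92 and -44, those of Pygm at -168 and -8 and that of Cav3 at -106. Pygm, muscle glycogen phosphorylase, had 12, 5.79, 7.01 and 7.13 in myoblasts and 161, 157, 225 and 147 in myotubes (log2 fold change 4.30 ± 0.25, limma adjusted p = 8.87e-10). Cav3, the muscle form of caveolin, had 6.46, 5.79, 2 and 4.46 against 153, 134, 186 and 143 (log2 fold change 4.84 ± 0.29, limma adjusted p = 1.31e-09). In both genes the myotube libraries lay far above the myoblasts and close to each other, and the receptor genes follow with the synapse.

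Fusion and cell adhesion genes had 18 of 39 members higher and 5 lower. Tmem8c, the older symbol for myomaker (chr2:27061636-27072179), which sits in the myoblast membrane and is needed for hemifusion, had 204, 135, 126 and 115 in myoblasts and 1975, 1959, 2629 and 1867 in myotubes (log2 fold change 3.87 ± 0.19, limma adjusted p = 1.37e-10). Gm7325, listed today as myomixer or myomerger (chr17:45600971-45602102), which completes the fusion pore, had 77.5, 58.8, 78.1 and 82.9 against 589.7, 363, 926 and 654 (log2 fold change 3.01 ± 0.23, limma adjusted p = 3.97e-08). The myoblast libraries thus held both transcripts, at values well above the 3 reads taken as the floor. The part of already differentiated cells in these values was not tested. Tmem182, a muscle membrane protein that restrains fusion, rose by 4.56 ± 0.36 from 1.78 to 8.3 to 76.5 to 167. Of the adhesion molecules, the cadherin genes Cdh13 and Cdh11 gained 2.31 ± 0.25 and 2.80 ± 0.48, and Cdh11 varied widely among myotubes with 82, 16.2, 61.3 and 35.7. Members that fell included Myof (myoferlin, membrane repair and fusion) by -0.72 ± 0.19 and Lgals1 (galectin-1) from 32501, 35016, 42228 and 41119 to 10764, 25141, 19932 and 17954 (log2 fold change -1.09 ± 0.28, limma adjusted p = 0.0073). The call of Lgals1 was lost when genes of low count were kept in the test. The number of fallen members was 2 without myoblast library 1 and 6 without myotube library 2.

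Neuromuscular synapse genes had 11 of 19 members higher and 2 lower, with a median of 0.95. All 4 tested subunits of the acetylcholine receptor rose. Chrng, the gamma subunit of the fetal receptor whose promoter is shown above, had 17.5, 15.4, 13 and 6.24 in myoblasts and 193, 96.3, 159.8 and 121 in myotubes (log2 fold change 3.39 ± 0.29, limma adjusted p = 2.00e-07). Chrna1 (alpha), with 2 E-boxes in the printed window, had 266, 251, 156 and 126 and 719, 354, 506 and 486 (log2 fold change 1.39 ± 0.24, limma adjusted p = 4.05e-04), Chrnd (delta) rose by 1.96 ± 0.22 and Chrnb1 (beta) by 1.13 ± 0.25. Lrp4, the agrin receptor, and Dok7, the adaptor of the receptor kinase, rose by 1.93 ± 0.35 and 1.60 ± 0.21. Musk itself, the kinase, had 20.3, 27, 30.0 and 17.8 against 26.8, 18, 47.4 and 28.7 and Rapsn (rapsyn, the scaffold) 661, 479, 503 and 635 against 598, 865, 652 and 783, and neither passed the test (limma adjusted p = 0.50 and 0.13). Etv4, an ETS factor on this list, fell by 1.46 ± 0.27.

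Ion channel genes were called in the higher direction only (14 of 24, median 1.10, with 16 and 0 members past 0.05 before adjustment and 14 and 0 by limma voom). These 24 were the tested members of 67 in the deposited data. Some of them, such as Cacna1s and Cacng6, passed the filter only through their myotube values. Sodium and calcium channels made up 8 of these 14, out of 9 tested. Cacna1s, the voltage sensor of excitation-contraction coupling, had 1.85, 2.89, 3 and 1.78 in myoblasts and 167, 92.7, 169 and 105 in myotubes and was at least 47.1-fold higher, taking 3 reads as the floor in the myoblasts. Cacng6, an accessory calcium channel subunit, was at least 9.44-fold higher on the same floor.

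The dystrophin-glycoprotein complex and membrane repair list had 19 of 37 members higher and 3 lower. Sgca (alpha-sarcoglycan), which braces dystrophin at the sarcolemma, had 14.8, 3.86, 13 and 11.6 in myoblasts and 89.8, 28.8, 74.3 and 51.5 in myotubes (log2 fold change 2.41 ± 0.39, limma adjusted p = 1.94e-04). Utrn, the autosomal relative of dystrophin, rose by 1.09 ± 0.22. Popdc2, a cAMP-binding membrane protein of muscle, was at least 7.78-fold higher, with 13.8, 21.6, 26 and 26.7 in myotubes. Sntb2, a syntrophin found in many tissues, decreased from 59.1, 125, 112 and 68.6 to 44, 43.2, 58.5 and 35.7 (log2 fold change -0.95 ± 0.25, limma adjusted p = 0.0084).

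IGF signalling, which feeds myotube growth and survival, had 8 of 15 genes higher and 2 lower (median 0.81). Both ligands rose. Igf2 (chr7:142650766-142666816), the autocrine factor of differentiating myoblasts, had 31.4, 22.2, 28 and 21.4 in myoblasts and 403, 188, 274 and 241 in myotubes (log2 fold change 3.34 ± 0.23, limma adjusted p = 8.21e-09). Every stretch of its last 500 transcript bases is shared with another annotated gene, so its reads cannot be assigned with certainty. Igf1 went from 8.3, 5.79, 4 and 5.35 to 18.1, 14.4, 20.4 and 21.8 (log2 fold change 1.54 ± 0.34, limma adjusted p = 0.0025). Of the receptors, Igf2r, the clearance receptor of IGF2, increased by 2.25 ± 0.34 and Igf1r, the signalling receptor, by 0.81 ± 0.21. Of 8 binding proteins 3 were higher and 1 lower. Igfbp5, the binding protein of differentiating muscle, had 750.2, 683, 583 and 367 and 4123, 1710.1, 3742 and 3331 (log2 fold change 2.41 ± 0.26, limma adjusted p = 2.74e-06), and Igfbp3 rose by 3.48 ± 0.36. Of 14 tested imprinted genes, 7 rose and 1 fell. H19 (chr7:142575529-142578143), the imprinted long non-coding RNA next to Igf2, had 43313, 39556, 41261 and 43459.6 in myoblasts and 83527, 127916, 117888 and 124757 in myotubes (log2 fold change 1.42 ± 0.29, limma adjusted p = 0.0016). In contrast to Igf2, its lowest myotube value was in library 1, and its call was lost when genes of low count were kept in the test. Mest, like Igf2 a paternally expressed gene, rose by 1.53 ± 0.30.

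TGF-beta, myostatin and BMP genes had 17 of 36 members higher and 4 lower (2 without myoblast library 3). Ligands, receptors and antagonists all contributed. Tgfb2 had 113, 89.7, 71.1 and 67.7 against 496, 318, 413 and 352 (log2 fold change 2.20 ± 0.20, limma adjusted p = 2.67e-07) and Tgfb3 58.1, 56.9, 45 and 47.2 against 325, 169, 289 and 239.8 (log2 fold change 2.25 ± 0.20, limma adjusted p = 3.65e-07), both ligands that restrain myoblast differentiation in culture. Tgfbr2, their type II receptor, rose by 1.81 ± 0.24. Follistatin (Fst), which binds myostatin and activins, moved from 8.3, 6.75, 7.01 and 8.91 to 136, 34.2, 94.8 and 104 (log2 fold change 3.26 ± 0.34, limma adjusted p = 1.98e-06), with library 2 at less than any other myotube library. Inhba, the activin A subunit that follistatin neutralizes, fell by 0.62 ± 0.17 from 209 to 269 to 130.4 to 185. Chrd (chordin), a BMP antagonist, was at least 5.91-fold higher, with 29.4, 11.7, 12.1 and 13.9 in myotubes.

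FGF, HGF, EGF and PDGF genes had 8 of 20 members higher and 2 lower. Fgf21, a secreted stress hormone, was at least 16.7-fold higher with 76, 18, 50.2 and 45.6 in myotubes, and Vegfa, the endothelial growth factor, rose from 95, 106, 79.1 and 84.7 to 602, 132, 237 and 243 (log2 fold change 1.51 ± 0.31, limma adjusted p = 0.0015) with library 1 the highest. The receptors Egfr and Erbb2 rose by 1.39 ± 0.28 and 1.26 ± 0.29. Wnt genes had 9 of 25 members higher and 3 lower, the latter 1 without myoblast library 2 and 4 without myotube library 1. Among them the Frizzled receptors Fzd4 and Fzd8 gained 1.87 ± 0.44 and 1.56 ± 0.36, and the ligand Wnt9a 1.19 ± 0.30. Cytokine and chemokine genes had 13 of 32 members higher, of which 10 were receptors (of 17 tested), and 4 lower (2 without myoblast library 4, 6 without myotube library 2). Fndc5, the precursor of the myokine irisin, had 18.5, 21.2, 18 and 14.3 in myoblasts and 424, 329, 477 and 469 in myotubes (log2 fold change 4.48 ± 0.19, limma adjusted p = 3.97e-11), a narrow spread in both groups. Il6st, the shared receptor chain of the interleukin-6 family, rose by 1.10 ± 0.18, Osmr (oncostatin M receptor) by 1.43 ± 0.32 and Cxcr4 by 1.37 ± 0.29. Its ligand gene Cxcl12 and the growth factor gene Csf1 fell, by -0.80 ± 0.21 and -1.02 ± 0.23. Interferon and antigen presentation genes stayed near the background, with 4 of 21 higher and 3 lower. Among immediate early genes (7 of 26 higher, 4 lower), the AP-1 gene Fosl1 fell from 137 to 189 to 43.7 to 95.4 and its relative Fosl2 rose by 0.98 ± 0.18, and Nr4a2, an orphan nuclear receptor, had 58.1, 62.7, 62 and 66.8 against 2.59, 32.4, 7.43 and 4.95 (log2 fold change -2.85 ± 0.47, limma adjusted p = 2.50e-04).

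Guidance genes, a group best known for steering axons, were called in the higher direction only. Of 39 tested ephrins, semaphorins, Slits, netrins and their receptors (58 were listed), 24 rose and none fell, with a median of 1.01. Some of them, such as Epha3 and Sema4d, passed the filter only through their myotube values. Before adjustment 27 and 1 had a p under 0.05, limma voom called 24 and 0, and the number that rose ranged from 16 to 25 when single libraries were left out. Receptors had 14 of 19 higher and ligands 10 of 20. Ephb3, an ephrin receptor, had 31.4, 30.9, 23 and 16.9 in myoblasts and 103, 108, 95.7 and 86.2 in myotubes (log2 fold change 1.94 ± 0.22, limma adjusted p = 5.78e-06), and Epha3 6.46, 4.82, 3 and 0.891 against 31.1, 22.5, 29.7 and 22.8 (log2 fold change 2.68 ± 0.41, limma adjusted p = 1.34e-04). Of the ligands, Sema3b, a secreted semaphorin, moved from 19 to 28.6 to 76.5 to 112 (log2 fold change 1.94 ± 0.22, limma adjusted p = 5.93e-06) and Sema4d, a transmembrane semaphorin, was at least 6.32-fold higher, its myotube values being only 17.3, 12.6, 27 and 14.9.

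Of 18 tested collagen chains (43 were listed), 15 rose and none fell (median 1.18, with 16 and 0 past 0.05 before adjustment and 15 and 0 by limma voom). The largest fold changes among them were those of 2 chains of type VI collagen, the beaded collagen that surrounds muscle fibres. Col6a2 (chr10:76595762-76623630) had 31.4, 20.3, 27 and 15.2 in myoblasts and 483, 309, 458 and 306 in myotubes (log2 fold change 4.01 ± 0.23, limma adjusted p = 9.90e-10), and Col6a1 on the same chromosome (chr10:76708792-76726168) 77.5, 49.2, 56 and 29.4 against 667, 454, 613 and 474 (log2 fold change 3.42 ± 0.24, limma adjusted p = 1.21e-08). The fibrillar Col3a1 rose from 920.0, 691, 653 and 419 to 5683, 2359, 3751 and 3528 (log2 fold change 2.50 ± 0.25, limma adjusted p = 1.37e-06), Col5a3 by 2.64 ± 0.26 and Col1a1 by 2.07 ± 0.23. In each of these collagen genes library 1 was the highest of its group, and myoblast library 4 the lowest. Matrix glycoproteins and proteoglycans had 31 of 47 members higher and 2 lower. Fbn1 (fibrillin-1, the microfibril protein) rose from 181, 189, 133 and 82 to 1098, 584, 828 and 821 (log2 fold change 2.54 ± 0.24, limma adjusted p = 6.42e-07), Fn1 (fibronectin) from 2808, 2309.8, 1702 and 1154 to 11459, 4510.5, 6206 and 6628 (log2 fold change 1.85 ± 0.28, limma adjusted p = 1.23e-04) and the proteoglycan gene Prelp by 3.92 ± 0.37. Decorin (Dcn), which binds collagen fibrils and TGF-beta, was at least 18.8-fold higher with 81.2, 17.1, 53.9 and 60.4 in myotubes, and Lama1, a laminin alpha chain of early basement membranes, at least 6.49-fold. Both genes passed the filter only through their myotube values.

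Proteases and collagen-modifying enzymes followed, with 25 of 37 higher and 2 lower. Adamts2, the peptidase that trims procollagen, had 19.4, 21.2, 14 and 12.5 in myoblasts and 137, 77.4, 102 and 83.2 in myotubes (log2 fold change 2.50 ± 0.25, limma adjusted p = 9.49e-07). Mmp2 and Mmp19, matrix metalloproteases, rose by 1.14 ± 0.18 and 2.27 ± 0.33, and Tgm2, a crosslinking transglutaminase, by 2.15 ± 0.23 from 16.9 to 38.8 to 125 to 139. Pcolce2, an enhancer of procollagen processing, went the other way, from 257, 180.3, 236 and 235 to 68.2, 128, 116 and 79.3 (log2 fold change -1.24 ± 0.21, limma adjusted p = 2.68e-04). Integrin genes, a list of 26 that also holds the binding protein Itgb1bp2 and the integrin-like Itgbl1, had 10 of 14 tested members higher and none lower (12 and 0 past 0.05 before adjustment, 9 and 0 by limma voom). Itga7, the laminin receptor chain of muscle fibres, had 500.1, 355, 265 and 163 and 2356, 1053, 1199.8 and 1215 (log2 fold change 2.22 ± 0.29, limma adjusted p = 2.43e-05). Itga11, a collagen receptor chain, and Itga4, which binds fibronectin and VCAM, rose by 2.53 ± 0.33 and 2.92 ± 0.45. Itgb1bp2 (melusin), a muscle protein that binds the beta1 chain, had 9.23, 7.72, 7.01 and 7.13 against 259, 183, 308 and 190.2 (log2 fold change 4.72 ± 0.22, limma adjusted p = 1.26e-10). It too passed the filter only through its myotube values. The myoblast libraries differed in these lists, with medians from the myoblast mean of 0.38, 0.16, -0.02 and -0.61 in libraries 1 to 4 for integrins, 0.37, 0.25, -0.04 and -0.56 for collagens and 0.37, 0.17, -0.06 and -0.50 for matrix glycoproteins, all below the myotube medians. YAP and TEAD targets had 3 of 20 members higher and 6 lower.

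Genes of the actin cytoskeleton and of small GTPase signalling had 9 of 54 higher and 12 lower (7 without myoblast library 3), and tubulins and microtubule proteins 6 of 33 higher and 8 lower (3 without myotube library 4). Actb, cytoplasmic beta-actin, fell from 47460.4, 50045, 58042 and 58185 to 12201, 29862, 24114 and 21432 (log2 fold change -1.35 ± 0.29, limma adjusted p = 0.0024), with 26% of its last 500 bases shared with other genes. Of 9 tested smooth muscle and pericyte markers 5 were higher and 2 lower. The 2 that fell were Cnn1 (calponin), from 394, 328, 395 and 440.2 to 44, 209, 48.3 and 31.7 (log2 fold change -2.64 ± 0.39, limma adjusted p = 7.95e-05), and Tagln (transgelin), by -1.76 ± 0.22, and the light chain gene Myl9, outside this list, changed by -1.17 ± 0.26. Those that rose included the contractile genes Smtn (smoothelin) by 0.93 ± 0.21 and Lmod1 (leiomodin-1) by 1.39 ± 0.37. Cnn1 in library 2 (209) was several times its value in the other myotube libraries. Stmn1, which destabilizes microtubules in dividing cells, fell by 1.70 ± 0.31, whereas Tubb6, a beta-tubulin of muscle regeneration, rose from 593 to 667 to 1106 to 1606 (log2 fold change 1.09 ± 0.16, limma adjusted p = 6.59e-05) and Trim54, a microtubule-binding ligase of muscle, by 2.96 ± 0.29. Rhob, a small GTPase, rose by 1.67 ± 0.18. Among intermediate filaments, Des (desmin) moved from 674, 469.7, 483 and 438 to 1010.1, 1223, 981 and 825 (log2 fold change 0.97 ± 0.18, limma adjusted p = 5.33e-04) and Nes (nestin) by 0.95 ± 0.23, and vimentin (Vim) changed by -0.60 ± 0.20, a call lost without myoblast library 1, 3 or 4 or myotube library 4 (limma adjusted p = 0.028 with all 8).

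Several enzymes of energy metabolism rose in their muscle form. Glycolysis and glycogen genes had 14 of 36 higher and 3 lower, and creatine and adenylate genes 10 of 18 higher and 2 lower. Ckm, muscle creatine kinase, had 97.8, 61.7, 65 and 33 in myoblasts and 1424, 1008, 1491 and 1142 in myotubes (log2 fold change 4.36 ± 0.25, limma adjusted p = 8.81e-10), while Ckb, the broadly expressed form, changed by 0.49 ± 0.17, a call lost in several alternatives. Pairs of a broadly expressed and a muscle form were listed for 14 protein families, chosen after their values had been seen. Cpt1b, the muscle form of carnitine palmitoyltransferase 1, was not tested, so that pair could not be compared. For glycogen phosphorylase, Pygm rose as given above and Pygb, the brain form, had 212, 164, 189 and 188 against 100.1, 219, 119.9 and 108 (log2 fold change -0.53 ± 0.22, limma adjusted p = 0.074). For phosphoglycerate mutase, Pgam2 rose by 3.55 ± 0.36 and Pgam1, the broadly expressed form, was not called. Pfkm, the muscle phosphofructokinase, rose by 1.72 ± 0.17 and Pfkl, the liver form, by 0.79 ± 0.16, so that both increased. The muscle caveolin Cav3 rose by 4.84 ± 0.29 and Cav1 by 0.60 ± 0.15. No difference passed the test for either enolase gene or for the cofilins Cfl1 and Cfl2 (-0.59 ± 0.27 and 0.31 ± 0.17). Prkag3, the gamma subunit of AMP-activated kinase found in muscle, rose from 6.46, 4.82, 5 and 3.56 to 129, 63.9, 112 and 86.2 (log2 fold change 4.02 ± 0.28, limma adjusted p = 1.24e-08). Of the transporters, the monocarboxylate exporter gene Slc16a3 by 2.52 ± 0.28 and the glucose transporter gene Slc2a1 by 1.17 ± 0.23. Pdk4 and Pdk1, kinases that both restrain pyruvate dehydrogenase, went in opposite directions, Pdk4 from 12.9, 18.3, 28 and 16.9 to 0, 5.4, 1.86 and 0.991 and Pdk1 from 40.6, 43.4, 62 and 45.5 to 290.1, 159, 219 and 231 (log2 fold changes -2.98 ± 0.52 and 2.20 ± 0.21).

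**Figure D3:**
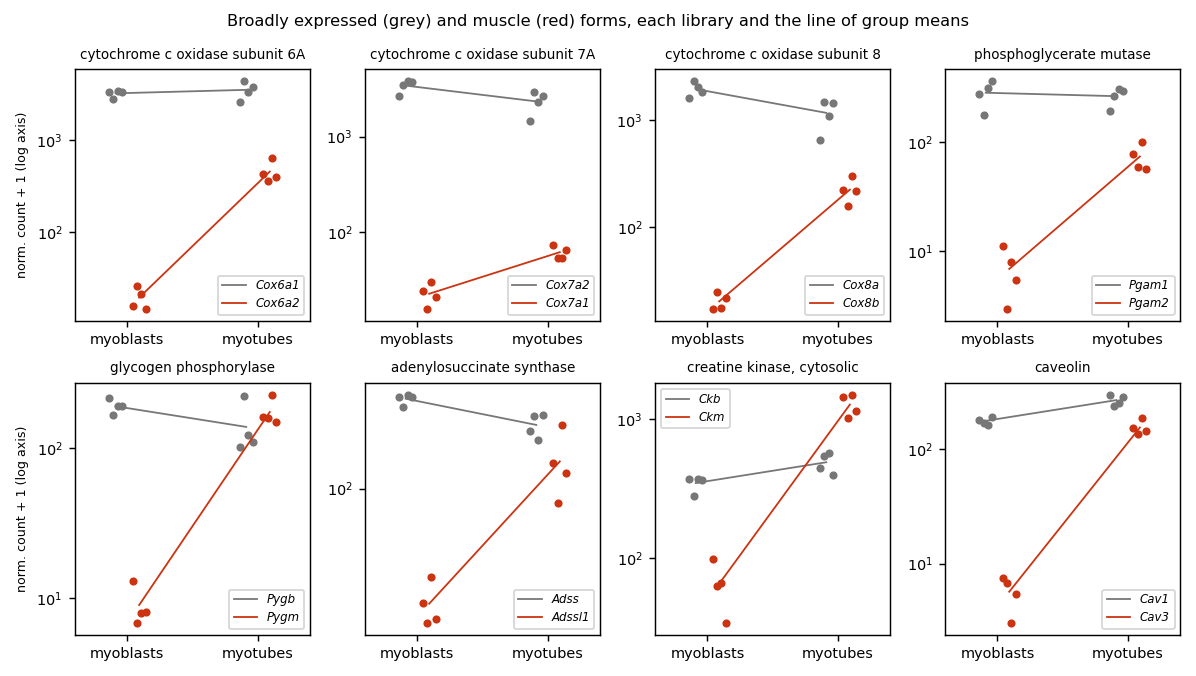
Normalized read counts of the broadly expressed form (grey) and the muscle form (red) of 8 protein families in the 4 WT myoblast and 4 WT myotube libraries, on log axes, each point being 1 library. The muscle forms rose in every panel, from 18.3 to 456 on average for Cox6a2 and from 64.4 to 1266 for Ckm, while the broadly expressed forms moved by less than 1 log2 unit.

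All 10 tested mRNAs of the mitochondrial genome (of 13) rose, with a median of 1.29. The libraries of each group differed in this list, with median differences from the myoblast mean of 0.45, 0.43, -0.19 and -0.66 in myoblast libraries 1 to 4 and of 1.78, 0.80, 1.30 and 1.12 in myotube libraries 1 to 4. The part of this spread among myoblasts in the change was not tested. ND5, a complex I subunit, had 997, 792, 545 and 356 in myoblasts and 2722, 1964, 2153 and 1820.0 in myotubes (log2 fold change 1.77 ± 0.25, limma adjusted p = 5.45e-05) and ND2 4016, 4011, 2656 and 1833 against 8961, 5050.2, 7205 and 6376 (log2 fold change 1.18 ± 0.25, limma adjusted p = 0.0021). The call of ND2 was lost in the fit of all 16 libraries, and 25% and 27% of the last 500 bases of ND5 and ND2 are shared with other annotated genes. Among the 6 mitochondrial mRNAs for which this share was computed, it was 100% and 99.8% for 2 cytochrome c oxidase subunits, so their reads cannot be assigned with certainty. The number that rose was 8 to 10 without single libraries. Nuclear subunits of oxidative phosphorylation, in contrast, had 3 of 79 higher and 8 lower (2 lower without myoblast library 3, 12 without myotube library 2), with a median of -0.09 and both shares below the background. The 3 that rose (Cox6a2, Cox7a1 and Cox8b) were all muscle forms of cytochrome c oxidase subunits, and 6 rose without myotube library 1. Cox6a2 went from 14.8, 25.1, 20.01 and 13.4 to 428, 355, 637 and 402 (log2 fold change 4.57 ± 0.23, limma adjusted p = 1.77e-10), Cox8b from 15.7, 23.1, 16 and 20.5 to 221, 155, 298 and 216 (log2 fold change 3.47 ± 0.22, limma adjusted p = 3.41e-09) and Cox7a1 by 1.48 ± 0.24. Their broadly expressed relatives Cox8a and Cox7a2 changed by -0.81 ± 0.23 and -0.58 ± 0.21, calls that were lost in the fit of all 16 libraries and, for Cox7a2, without most single libraries, and Cox6a1 was not called. Mitochondrial ribosomal protein genes were called in the lower direction only, 27 of 73 with a median of -0.32 (32 lower and 0 higher past 0.05 before adjustment, 27 and 0 by limma voom). Without myoblast library 3 the count was 11 and without myotube library 2 it was 35. Mrps6 fell from 1093, 1079, 1320.0 and 1276 to 257, 906, 461 and 495 (log2 fold change -1.30 ± 0.26, limma adjusted p = 0.0014) and Mrps27 by -1.13 ± 0.28. Genes of mitochondrial biogenesis, dynamics and the TCA cycle had 10 of 55 higher and 5 lower. The counts were 5 higher without myoblast library 3 and 8 lower without myotube library 2. The 28 TCA cycle genes among them had 3 higher and 4 lower, and the 16 dynamics genes 5 higher and 1 lower. Of the latter, Bnip3, the outer membrane receptor of mitophagy, rose from 147, 167, 161 and 213 to 686, 655, 831 and 781 (log2 fold change 2.10 ± 0.16, limma adjusted p = 4.96e-08) and Fis1, a fission factor, fell by 0.81 ± 0.20.

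**Figure D4:**
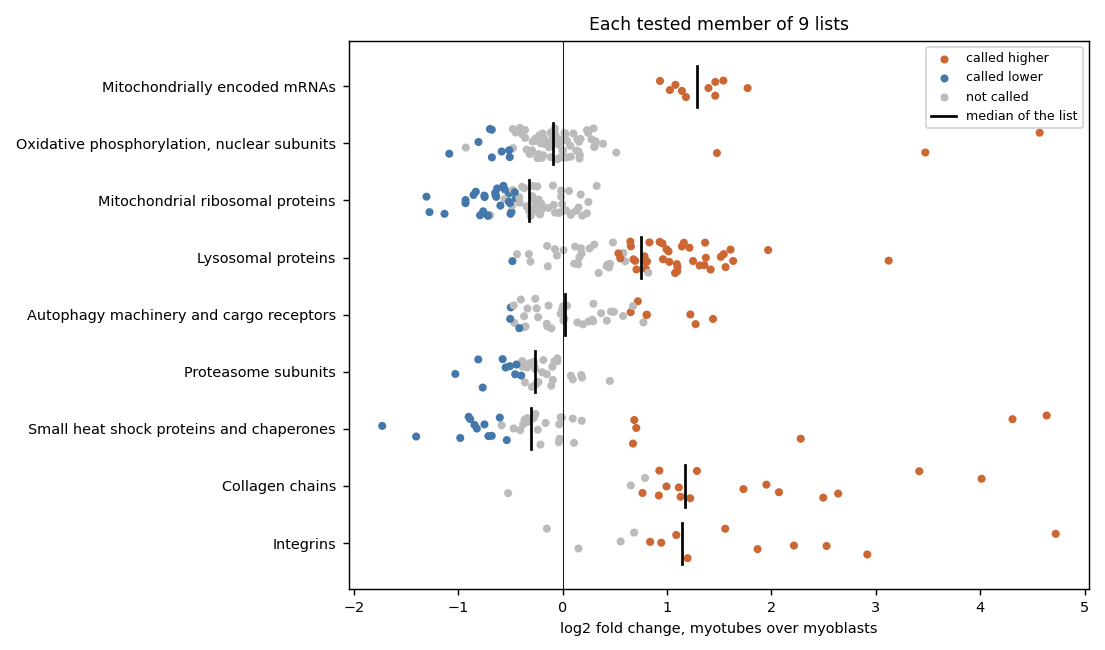
Log2 fold change of each tested member of 9 metabolic and protein turnover lists, WT myotubes relative to WT myoblasts, each point being 1 gene and each vertical line the median of the list. Mitochondrially encoded mRNAs and lysosomal proteins lie to the right of 0 (medians 1.29 and 0.75), and mitochondrial ribosomal proteins and proteasome subunits to the left (-0.32 and -0.26).

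Lipid genes changed in both directions. Fatty acid uptake and oxidation genes had 10 of 38 higher and 6 lower (3 lower without myoblast library 4). Lpl, lipoprotein lipase, rose from 9.23, 9.64, 14 and 5.35 to 154, 53.1, 68.8 and 65.4 (log2 fold change 2.97 ± 0.33, limma adjusted p = 4.03e-06), Acsl6, a long-chain acyl-CoA synthetase, by 3.31 ± 0.33, and the fatty acid translocase gene Cd36 was at least 9.28-fold higher. Fabp5, a fatty acid binding protein of growing cells, fell from 25.8, 44.4, 44 and 39.2 to 6.04, 12.6, 0.929 and 2.97 (log2 fold change -2.89 ± 0.47, limma adjusted p = 2.04e-04), and Plin2, which coats lipid droplets, by -1.15 ± 0.21. Cholesterol synthesis genes had 13 of 30 lower and 6 higher. Acat2, the cytosolic thiolase, fell from 909, 1013, 1262 and 1125 to 278, 618, 363 and 382 (log2 fold change -1.44 ± 0.21, limma adjusted p = 6.46e-05), Stard4, a sterol carrier, by -1.22 ± 0.19 and Hmgcs1, HMG-CoA synthase, by -0.80 ± 0.16. Dhcr7, the last enzyme of the pathway, rose by 1.42 ± 0.23. The calls leaned downwards, with 43.3% of members lower against 14.1% of all genes and 20% higher against 17.4%. The list median was nevertheless close to 0 (-0.06).

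Nucleotide synthesis genes fell without exception among those called, 11 of 19 (1 higher and 11 lower past 0.05 before adjustment, 0 and 11 by limma voom). In the whole list, which adds folate and amino acid genes, 20 of 60 fell (13 without myoblast library 3) and 11 rose. Tyms, thymidylate synthase, which supplies thymidine for DNA synthesis, went from 221, 267, 292 and 284 to 129, 141, 112 and 151 (log2 fold change -0.99 ± 0.16, limma adjusted p = 2.55e-04). Amino acid genes leaned upwards (9 of 28 higher, 3 lower). The light and heavy chains of the large neutral amino acid transporter, Slc7a5 and Slc3a2, rose by 1.71 ± 0.26 and 1.60 ± 0.21, and Gpt2, alanine aminotransferase of mitochondria, from 233 to 294 to 665 to 964. NRF2 targets and antioxidant enzymes had 15 of 46 lower and 3 higher (10 lower without myoblast library 3). Prdx2, a peroxiredoxin, fell from 1054, 1235, 1506 and 1217 to 362, 794, 689.6 and 649 (log2 fold change -1.05 ± 0.21, limma adjusted p = 0.0014), and Cbr3, a carbonyl reductase under NRF2, by -0.99 ± 0.25. Those that rose were secreted proteins, among them Sepp1 (selenoprotein P) by 1.47 ± 0.25 and Sod3 (extracellular superoxide dismutase) by 2.23 ± 0.35.

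Lysosomal proteins had 38 of 64 members higher and 1 lower (median 0.75), of which 24 were hydrolases out of 37 tested. Ctsc, cathepsin C, had 11.1, 10.6, 8.01 and 5.35 in myoblasts and 193, 35.1, 75.3 and 85.2 in myotubes (log2 fold change 3.12 ± 0.39, limma adjusted p = 1.42e-05), Ctsb (cathepsin B) 815, 709.8, 622 and 443 against 1898, 1217, 1868 and 1633 (log2 fold change 1.36 ± 0.20, limma adjusted p = 7.95e-05), and Gaa, the acid glucosidase that degrades glycogen in lysosomes, rose by 1.63 ± 0.30. Lamp2, a membrane protein of lysosomes, rose by 1.36 ± 0.21. In all 3 hydrolases myotube library 2 was lower than library 1, and the list's median difference in myoblast libraries 1 to 4 was 0.30, 0.10, -0.06 and -0.35. The autophagy machinery and its cargo receptors were close to unchanged as a list, 7 of 44 higher and 3 lower with a median of 0.02 (0 lower without myoblast library 3, 7 without myotube library 2). Calcoco1, a cargo receptor, rose from 130.1 to 185 to 336 to 444 (log2 fold change 1.22 ± 0.17, limma adjusted p = 3.89e-05) and Nbr1, another, by 0.80 ± 0.17, whereas the initiating kinase genes Ulk1 and Ulk2 had log2 fold changes of 0.28 ± 0.20 and 0.37 ± 0.18 that did not pass the test.

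Proteasome subunits were called in the lower direction only, 9 of 35 (1 higher and 11 lower past 0.05 before adjustment, 0 and 8 by limma voom). That share of 25.7% compares with 14.1% of all genes, and the count was 3 without myoblast library 3 and 14, beside 1 higher, without myotube library 2. Psmd4, the ubiquitin receptor of the cap, fell from 252, 333, 317 and 251 to 136, 217, 208 and 129 (log2 fold change -0.77 ± 0.20, limma adjusted p = 0.0071). In the list of FoxO factors and muscle ubiquitin ligases, 13 of 29 rose and 1 fell. Klhl41 and Klhl31, Kelch adaptors of cullin ligases in muscle, moved from 29.5, 28.9, 24 and 17.8 to 418, 236, 369.9 and 334 (log2 fold change 3.70 ± 0.21, limma adjusted p = 9.90e-10, 29% of the last 500 bases shared) and by 2.77 ± 0.23. Trim63 (MuRF1), the ligase of muscle atrophy, rose from 8.3, 4.82, 8.01 and 6.24 to 41.4, 26.1, 41.8 and 39.6 (log2 fold change 2.29 ± 0.30, limma adjusted p = 2.17e-05), and Ankrd2, a stretch-responsive ankyrin repeat protein on the same list, by 5.77 ± 0.39. Chaperones had 12 of 38 lower and 6 higher. The 6 were led by muscle proteins, Hspb7, a small heat shock protein, from 7.38, 2.89, 2 and 1.78 to 90.7, 64.8, 159 and 107 (log2 fold change 4.64 ± 0.36, limma adjusted p = 5.89e-08) and Unc45b, the myosin chaperone, by 4.31 ± 0.48. Cryab (alphaB-crystallin) rose by 0.71 ± 0.14. Hsp90aa1, the inducible cytosolic HSP90, fell from 1308, 1036, 1718 and 1467 to 383, 569, 691 and 463 (log2 fold change -1.40 ± 0.20, limma adjusted p = 5.72e-05) and the mitochondrial chaperonin gene Hspd1 by -0.98 ± 0.19.

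Splicing regulators of differentiation had 7 of 35 higher and 6 lower (3 lower without myoblast library 2). Rbm24, which promotes muscle exons, had 8.3, 14.5, 13 and 11.6 in myoblasts and 204, 67.5, 185 and 180.3 in myotubes (log2 fold change 3.55 ± 0.31, limma adjusted p = 1.97e-07), and Rbm38, its relative, rose by 2.17 ± 0.41. Rbfox1, a splicing factor of muscle and brain, was at least 6.51-fold higher. Mbnl1, the muscleblind factor, fell from 1519, 1617, 1571 and 1660.3 to 1005, 1059, 1043 and 1074 (log2 fold change -0.61 ± 0.14, limma adjusted p = 0.0046), the 4 myotube values lying within a narrow range, and Ptbp3 by -0.53 ± 0.15. Ptbp1, the repressor of muscle exons, changed by -0.93 ± 0.21, with myotube library 2 (680) inside the myoblast range. Of 12 tested long non-coding RNAs 4 rose and none fell (5 and 0 past 0.05 before adjustment, 3 and 0 by limma voom), Neat1, the scaffold of paraspeckles, by 1.11 ± 0.25. Of the zinc finger genes named Zfp, 18 of 224 were higher (8.04%) and 8 lower (3.57%), against 17.4% and 14.1% (9 higher without myoblast library 3 and 26 without myotube library 2, 3 lower without myoblast library 4). Zfp568, a KRAB zinc finger repressor of a placental Igf2 transcript, rose from 106, 101, 80.1 and 82 to 272, 163, 244 and 245 (log2 fold change 1.30 ± 0.19, limma adjusted p = 7.21e-05). Zfp36l1, which binds AU-rich mRNAs, rose by 1.09 ± 0.21, and Zfp35 fell by 1.08 ± 0.30. Hox genes had 1 of 12 lower and none higher (3 lower and 0 higher past 0.05 before adjustment, 1 and 0 by limma voom).

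The largest changes outside the sarcomere, endoplasmic reticulum and replication lists, by the rule for named genes, included several genes with other known sites of action. Slc5a5, the sodium-iodide symporter of the thyroid, had 1.85, 1.93, 1 and 0.891 in myoblasts and 141, 70.2, 116 and 104 in myotubes, at least 38-fold higher. Dbh, dopamine beta-hydroxylase of noradrenergic cells, had 1.85, 0.964, 1 and 0.891 against 60.4, 66.6, 98.5 and 94.1, at least 28.2-fold, and Tekt5, a tektin of sperm flagella, 0, 2.89, 0 and 0 against 54.4, 40.5, 73.4 and 46.6, at least 19-fold. None of these 3 genes exceeded 3 reads in any myoblast library, so they were tested only because of their myotube values. The lack of overlap was part of the rule that picked them and is no separate support. Gprc5c, an orphan receptor, rose from 6.46, 1.93, 3 and 0.891 to 246, 99.9, 159 and 129 (log2 fold change 5.39 ± 0.38, limma adjusted p = 1.24e-08). Dhrs7c, a dehydrogenase of the sarcoplasmic reticulum, rose by 4.98 ± 0.30, and Abra (STARS), an activator of serum response factor, was at least 15.3-fold higher. Ppapdc3 (listed today as Plpp7), an inactive phosphatase of the nuclear envelope, rose by 4.56 ± 0.38, and Sorbs2, an adaptor at the Z-disc, by 4.49 ± 0.44 with myotube values of 166, 29.7, 103 and 63.4. Dhrs7c and Sorbs2 thus belong to the reticulum and the sarcomere by their site, though the lists do not hold them. Ablim3, an actin-binding LIM protein, was at least 22.7-fold higher and Tceal7 rose by 4.66 ± 0.34.

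Downwards, the largest change was that of Sh2d1b1, an adaptor gene of natural killer cells, with 81.2, 74.3, 88.1 and 81.1 in myoblasts and 2.59, 36, 5.58 and 4.95 in myotubes (log2 fold change -3.27 ± 0.49, limma adjusted p = 9.81e-05). Its myotube library 2 held several times the value of the others. The same library stood out in Mirt1, a non-coding RNA, with 24.9, 26, 26 and 28.5 against 0.863, 11.7, 4.65 and 1.98, in Kif1a, a kinesin of axonal transport, with 36.9, 27, 31 and 14.3 against 0.863, 9.9, 3.72 and 2.97, and in Car8, a carbonic anhydrase-related protein, with 50.7, 71.4, 52 and 82 against 7.77, 40.5, 5.58 and 16.8 (log2 fold changes -2.61 ± 0.47, -2.60 ± 0.47 and -2.15 ± 0.42). Krt80, an epithelial keratin, fell from 119, 107, 172 and 124 to 16.4, 59.4, 28.8 and 23.8 (log2 fold change -2.12 ± 0.30, limma adjusted p = 4.98e-05), and Med16, a subunit of the Mediator tail, from 292, 359, 406 and 365 to 29.4, 186, 79 and 98.1 (log2 fold change -2.11 ± 0.36, limma adjusted p = 3.23e-04, 28% of the last 500 bases shared). Lsm5, a core protein of small nuclear RNPs, and M1ap, a meiotic protein, decreased by 2.30 ± 0.45 and -2.13 ± 0.49 from low counts.

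Markers of other cells were examined for the whole of each list. Of 8 endothelial markers none was tested, 5 were at 0 in all 8 libraries and the summed count was at most 2.59. Of 9 leukocyte markers none was tested, and their sum was 8.36 to 18.1. Of 8 neuronal and glial markers 1 was tested and was not called. Fibroblast and fibro-adipogenic markers had 3 of 5 tested members higher (of 10 listed), namely Dcn, Col1a1 and Col3a1, their sum being 2754 to 5628 in myoblasts and 12456 to 22148 in myotubes, while Dpt and Thy1 were at 0 in all 8 libraries. These 3 genes are also part of the matrix lists above, and the part of non-muscle cells in their rise was not tested. Quiescent satellite cell markers had 5 of 8 tested members higher and 2 lower (of 11 listed). Spry1, a receptor kinase inhibitor of quiescent cells, rose from 19.4, 18.3, 17 and 29.4 to 111, 36.9, 72.5 and 94.1 (log2 fold change 1.77 ± 0.30, limma adjusted p = 3.12e-04), besides Heyl, Notch3 and Col5a3. Those that fell were Hes1 and Sdc4, the latter from 174, 192, 148 and 103 to 128, 72.9, 112 and 92.1. Pax7 stayed at 4.95 or less in all 8 libraries and Calcr was at 0, so neither was tested. Among adipocyte markers 1 of 2 was lower and among osteoblast markers 1 of 3, Runx2, which fell from 111 to 150.1 to 37.1 to 82.7.

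**Figure D5:**
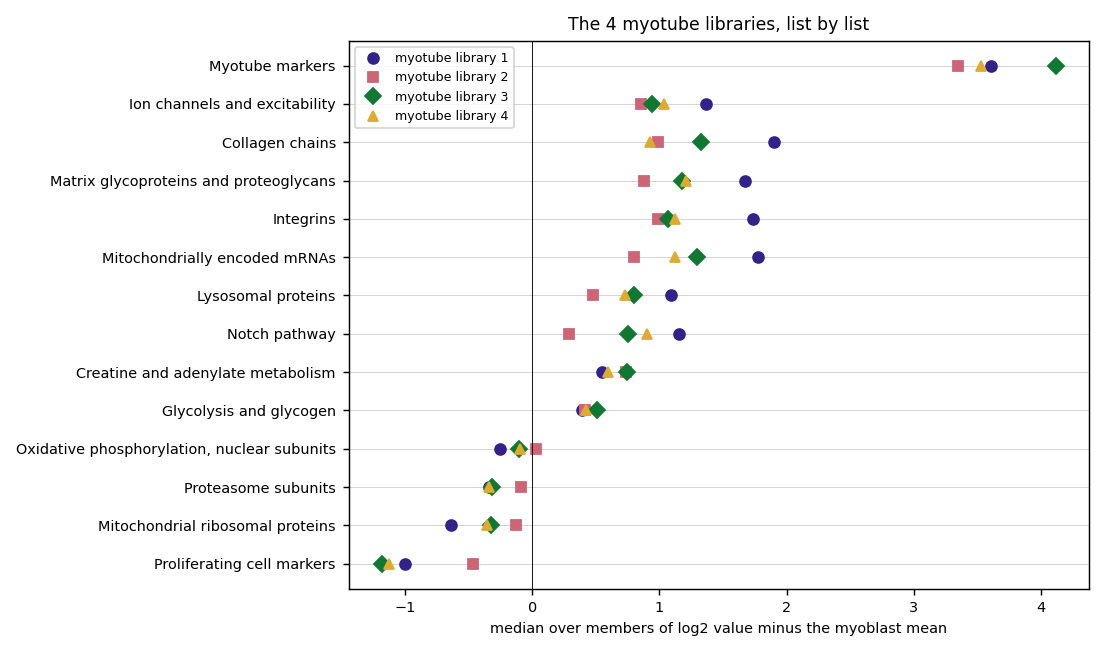
Median difference of the members of 14 gene lists from the myoblast mean (log2 of the normalized count plus 1) in each of the 4 WT myotube libraries, each point being 1 library. Library 1 lies farthest from 0 and library 2 nearest in most lists, as in the medians of all genes called higher (1.38 and 0.79).

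The myotube libraries differed among themselves in single lists as well. Acetylcholine receptor subunits had median differences from the myoblast mean of 2.08, 1.29, 1.86 and 1.48 in myotube libraries 1 to 4, lysosomal hydrolases 1.22, 0.51, 0.94 and 0.91, fibrillar collagens 2.29, 1.58, 1.53 and 1.53, and nucleotide synthesis genes -0.37, -0.11, -0.66 and -0.53. The same 4 libraries had values of 1.33, 0.41, 0.83 and 1.00 for the CDK inhibitors. Library 2 was nearest to the myoblasts in these lists except in the fibrillar collagens, and library 1 was farthest except in the nucleotide synthesis genes. Sgca, both fusogens and all 4 acetylcholine receptor genes were nevertheless higher in library 2 than in every myoblast library. The number of genes called was lowest without myoblast library 3 (2315, of which 894 were lower) and highest without myotube library 2 (4110), and the part of the stage of each culture in these differences was not tested.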

How the data were processed

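The deposited table holds 31053 genes in 16 libraries as log2 values, which the authors made from gene counts divided by a factor per library, plus 1. Per the methods and the submitters' processing notes, digital mRNA-seq reads were cleared of adapters and ribosomal RNA, aligned to mm10 with STAR (2.6.0a) and counted per gene with HTSeq; the normalization tool is not given in the sources used here. The deposited values were whole multiples of 1 read in every column (tolerance 0.001), so reads per library could be recovered. Columns were matched to samples by their titles.

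The 8 WT libraries were fitted with limma (3.58.1, R 4.3.3) on the log2(normalized count + 1) scale, with the trend option, no covariate, Benjamini-Hochberg adjustment over 10282 genes and a threshold of 0.05 (2-sided). A pseudocount of 1 understates the change of genes with low counts. The fit was tested on simulated data for this comparison, where 96% of genes changed by 2 and 78% of genes changed by 1 on the log2 scale were called among 10282 genes. The simulation changed 200 genes, drew each gene independently with an assumed spread and held no differences between libraries of a group. The real comparison had more changed genes and such differences, so these shares need not hold for it. The named genes were the 15 largest changes in each direction outside the sarcomere, endoplasmic reticulum and replication lists with no overlap between groups and no predicted-gene name, up to 4 called members of each list in each direction by size of change, and the first 2 genes of each role in a list. Only part of the genes that this rule gives are described. Gene lists, named genes and alternatives were chosen with earlier results of these data known; the isoform pairs, Smtn, Lmod1, the promoters shown, the motifs and the file's older symbols for mitochondrial genes were chosen after values were seen, so none is independent support. Positions are from GENCODE M21 (GRCm38) and promoters from RefSeq (GRCm38.p6). Shares of shared bases are the 31-base stretches in the last 500 transcript bases that another gene also holds.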

Additional observations from a re-analysis of the deposited data

Results flagged for a closer look

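In 432 groups of 4 libraries (216 genes, 2 groups each), 32 had a highest or lowest library whose gap to its neighbour passed Dixon's 95% critical value for 4 samples (7.41%, where chance gives about 1 group in 20). Myotube library 2 stood apart upwards in Cnn1 (209), Hmgcs1 (840.2), Nr4a2 (32.4), Pygb (219), Sh2d1b1 (36) and Stmn1 (300.5), genes with lower values in the other myotube libraries, and downwards in Tet2 (32.4) and Trim63 (26.1). Myotube library 1 was the high one in Chrd (29.4), Itga7 (2356), Lmod1 (58.7), Lpl (154) and Slc16a3 (169), and myotube library 3 in Cdkn1a (6696), Cdkn1c (166) and Tmem8c (2629). Nes was lowest in myotube library 4 (1711). All of these values are normalized read counts.

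Among myoblasts, library 1 was high in Dbh (1.85), Lama1 (0.923), Rbfox1 (2.77) and Slc16a3 (24), library 2 in Dhrs7c (3.86), Hspd1 (631) and Tekt5 (2.89), and library 3 in Chrd (1.001). Library 2 was low in Abra (0), Ckb (277), Lrp4 (5.79) and Vim (10713), library 3 in Calcoco1 (130.1) and library 4 in Chrnb1 (73.1) and Gpt2 (233). Those of Abra, Chrd, Dbh, Lama1, Rbfox1 and Tekt5 are differences of at most 3 reads. The cause of these single values was not tested.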

How the results depend on the processing

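The number of called genes (3240, 1791 higher and 1449 lower) ran from 2399 to 3455 over other pseudocounts (0.5 and 5), filters, scalings, the fit of all 16 samples, limma voom and eBayes without a trend, all within 1.5 times. Sample weights gave 4565 calls, of which 2204 were lower. At an adjusted p under 0.01 the counts were 1815, 1154 higher and 661 lower, and requiring a change of 1 or more on the log2 scale 1310, 948 higher and 362 lower. Without 1 library at a time they ran from 2315 to 4110 in all, from 1412 to 2150 higher and from 894 to 1960 lower; 894 lower was without myoblast library 3, 1960 without myotube library 2. Quantile normalization turned the balance (1552 higher and 1738 lower) and shifted the median of all genes to -0.09. The replicate block gave 3188 calls (1776 higher and 1412 lower). Same-numbered libraries had correlations of their deviations of 0.205, -0.234, 0.135 and 0.155. Pairing by replicate number is not shown by these values, and with 4 libraries per group they cannot exclude it. Of the 209 called genes given with a fold change, none changed direction in any alternative. All 209 kept their call under both other pseudocounts, the 3 scalings, the replicate block and voom, and 205 kept it without the filter (not Cox7a2, H19, Lgals1 and Vim) and with all 16 samples (not Ckb, Cox7a2, Cox8a and ND2). With single libraries left out, the calls lost among the 209 were those of Ckb, Cox7a2 and Vim. These genes were picked mostly for the size of their change, so their calls were likelier to hold than others. Of all 3240 calls, 73.5% were kept with all 16 samples and 86.4% by eBayes without a trend. Without single libraries, 70.9% (myoblast library 3) to 97% (myotube library 2) were kept. A minimum of 50 left 160 of the 209 to test, all called. edgeR and DESeq2 were not run, as the deposited values are log2 and not counts. At 2686680 to 3226387 reads per library, genes under a normalized count of 10 were mostly not tested, and absence cannot be read from them.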

Other observations

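Fatty acid synthesis and desaturation genes had 8 of 19 members higher and 3 lower, 5 being higher without myoblast library 3. Those that rose included the acyltransferase genes Dgat1 and Dgat2, which make triglyceride, and the elongase gene Elovl5, while Acly, which supplies acetyl-CoA, fell. Transcripts of genes that rose had a median length of 3727 bases and a median GC content of 51.8%, against 2986 bases and 49.7% for genes that fell and 3466 bases and 49.7% for all genes tested; these are descriptions with no test. The part of length or GC content in the calls was not tested.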
